A study of Mus musculus with 17 samples.

Results

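The 38 genes described here act in the G2 phase of the cell cycle and in mitosis. They were chosen by symbol, as a list of cyclins, kinases, spindle and kinetochore proteins, cytokinesis factors and chromosome proteins. A listed gene was used when it reached a log2 value of 5 in any of 6 groups of cells. All 38 were found, each on a single row of a table of 38087 genes, and all 38 were used. None fell outside the threshold. The members closest to it were Ttk, with 5.35 in its highest group, and Kif2c, with 6.33. The cells were sorted from the tibialis anterior, a muscle of the lower leg, of male mice of the DBA/2J strain aged 3 months. All groups had been injured with cardiotoxin, a venom toxin that kills muscle fibres and sets off regeneration. The groups were neutrophils on day 1 after injury (2 samples), macrophages high in surface Ly6C on days 1, 2 and 4, and macrophages low in it on days 2 and 4 (3 samples for each macrophage group). No uninjured group and no altered gene was included among them, and the labels do not say whether the samples of a group came from separate animals.

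A dividing cell makes this set of proteins late in its cycle. CDK1 bound to cyclin A or cyclin B drives entry into mitosis, the kinases PLK1 and Aurora A and B build and check the spindle, and condensin compacts the chromosomes. The anaphase-promoting complex then destroys the cyclins, and the cytokinesis proteins separate the daughter cells. The genes are held silent in resting cells by the DREAM complex and activated in G2 by B-MYB and FOXM1, largely through a promoter element called the CHR (cell cycle genes homology region) together with CCAAT boxes, which bind NF-Y. In injured muscle, monocytes enter from the blood as Ly6C high cells. They become Ly6C low macrophages, which are known to proliferate in the tissue, whereas mature neutrophils do not divide.

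The promoters show what the members share in sequence. RefSeq promoters (GRCm38.p6, 250 bases before to 50 after each start) were matched by symbol for 31 of the 38 members, giving 33 promoters, since Ect2 and Prc1 have 2 each that overlap. A CHR was searched in its common form, TTTGAA. Its less common form, which also counted, is TTCGAA. The NF-Y box was searched as the letters CCAAT of its name. An E2F site was searched as TTTGGCGC, TTTCCCGC, TTTCGCGC or TTTGCCGC. All were searched on both strands and counted whether or not they overlapped another match. The 7 stretches below are 130 bases each, 5′ to 3′ on the strand of the gene, and end before the first annotated start, so no transcribed base is included. They were picked by the matches within the 130 bases shown. There Top2a has several matches of both kinds, and Cdk1 and Cdc20 have 1 CHR beside 1 or 2 CCAAT boxes. Mki67 has CHR matches alone there, Ccnb2 and Kif23 have CCAAT boxes alone, and Birc5 has neither. These contrasts belong to the 130 bases only. In the whole promoter, Mki67 also has 3 CCAAT boxes, Ccnb2 has 2 CHR matches, Kif23 has 1, and Cdk1 has 2. Capitals mark CHR and CCAAT matches, also those that lie on the opposite strand and so appear reversed and complemented.

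Top2a (chr11:99024190-99024319, minus strand): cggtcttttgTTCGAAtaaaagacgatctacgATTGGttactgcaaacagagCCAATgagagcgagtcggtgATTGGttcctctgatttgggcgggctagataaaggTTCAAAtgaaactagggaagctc
Cdk1 (chr10:69352939-69353068, minus strand): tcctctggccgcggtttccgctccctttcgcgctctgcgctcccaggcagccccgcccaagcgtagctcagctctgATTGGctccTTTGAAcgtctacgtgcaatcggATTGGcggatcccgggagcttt
Cdc20 (chr4:118437353-118437482, minus strand): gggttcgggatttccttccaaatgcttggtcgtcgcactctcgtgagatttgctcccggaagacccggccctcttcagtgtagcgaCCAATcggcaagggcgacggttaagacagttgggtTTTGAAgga
Mki67 (chr7:135716380-135716509, minus strand): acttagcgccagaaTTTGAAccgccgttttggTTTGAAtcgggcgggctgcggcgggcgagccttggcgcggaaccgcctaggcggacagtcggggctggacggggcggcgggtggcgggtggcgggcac
Ccnb2 (chr9:70421555-70421684, minus strand): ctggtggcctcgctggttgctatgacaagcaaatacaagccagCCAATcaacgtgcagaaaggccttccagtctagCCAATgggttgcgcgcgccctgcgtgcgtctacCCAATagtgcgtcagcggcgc
Kif23 (chr9:61946800-61946929, minus strand): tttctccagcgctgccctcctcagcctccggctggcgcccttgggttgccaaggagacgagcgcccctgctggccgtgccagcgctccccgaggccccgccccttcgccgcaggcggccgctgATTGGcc
Birc5 (chr11:117849107-117849236, plus strand): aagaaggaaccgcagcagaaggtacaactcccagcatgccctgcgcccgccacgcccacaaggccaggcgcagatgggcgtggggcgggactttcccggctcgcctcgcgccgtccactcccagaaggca

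In Top2a, the gene of the topoisomerase that untangles sister chromatids, the matches of the shown stretch lie at -120 (CHR), -98, -78 and -58 (CCAAT) and -23 (CHR), counted from the start. In Cdc20, an activator of the anaphase-promoting complex, a CCAAT box at -53 precedes a CHR at -18. In Cdk1 a CCAAT box at -80, a CHR at -71 and a second CCAAT box at -48 stand close together. A further CHR at -15 in Cdk1 and a CCAAT box at -8 in Cdc20 lie past the end of the shown stretches. Positions are counted from the RefSeq start, which in Cdk1 and Cdc20 lies downstream of that end.

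A CHR was found in 28 of the 33 promoters (84.8%), against 13.8% of the 10797 promoters of genes that reached a log2 value of 5 and 19.2% of all 32851. A CCAAT box was found in 26 (78.8%), against 37.0% and 37.4%. Both stood in 24 (72.7%), against 5.5% and 7.5%. CCAAT boxes at 2 or more places were present in 48.5% of the members' promoters, against 13.8% of those of the genes that reached 5. An E2F site, the element of genes of the G1/S transition, was found in 3 (9.1%), those of Cdk1, Ncapg and Ncapd2, against 3.9%. The 32 promoters of DNA replication genes gave the opposite order of CHR and E2F, with a CHR in 15.6% and an E2F site in 37.5%. Of 67 promoters of other mitosis genes, 58.2% held a CHR. The core subunits of the anaphase-promoting complex, which all cells use, held one in 16.7% of 18 promoters. Matches to the CHR had a median position of -10 and matches to CCAAT one of -78.5. None of the 3 motifs was found in the promoters of Birc5, Nuf2 and Nusap1. A match is a string of letters, not a measured site, and an absent match says only that these letters are not in the promoter searched.

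**Figure D1:**
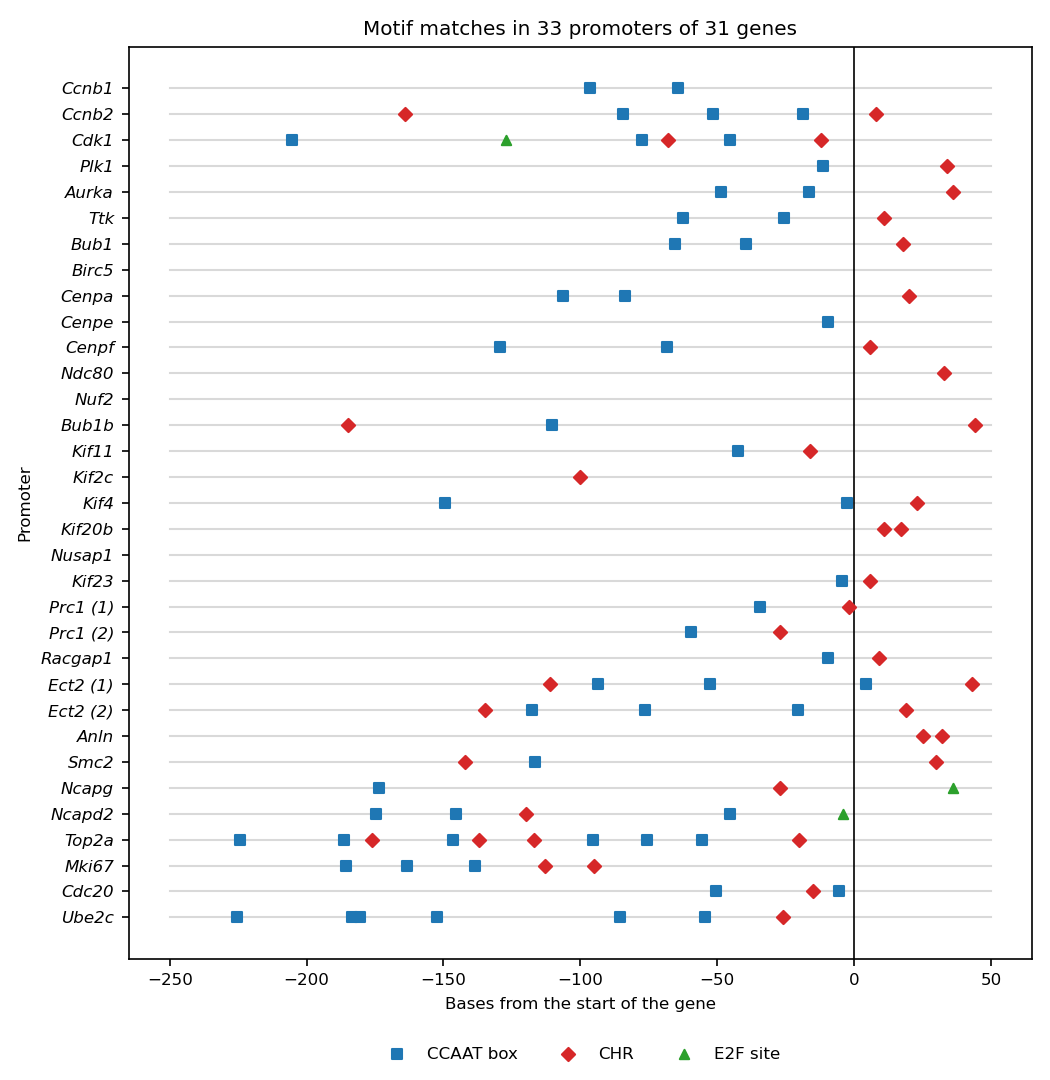
Positions of CCAAT (blue squares), CHR (red diamonds) and E2F (green triangles) matches, in bases from the start of the gene (horizontal axis), in each of the 33 promoters of 31 members (vertical axis). CHR matches cluster around the start, with a median of -10, and most CCAAT matches lie upstream of them, with a median of -78.5.

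The values used are the authors' group values of log2 normalised reads, 1 per gene and group. They come with no estimate of the spread between samples, no replicate check stands behind them, and no test was possible. Differences are therefore given as sizes, and whether any exceeds the spread between samples is not known. A gene entered a comparison where either group reached a log2 value of 5 (for the gap between subsets, any of 4 groups), and was called higher or lower when the groups were at least 2-fold apart, which is 1 on the log2 scale. From the spacing of the lowest values, a gene at a log2 value of 5 had 31.2 to 77.6 reads per library, which gives a counting error of 11.4 to 17.9%. The sort was checked before the results. Ly6c2, the gene of the sorted antigen, was at 9.65, 9.87 and 10.56 in the successive Ly6C high groups, but at 6.16 on day 2 and 4.64 on day 4 where the sort was for low Ly6C. Ly6g, the defining surface gene of neutrophils, was at 3.48 in the neutrophil column and at 0 in the 5 macrophage columns. Csf1r, the growth factor receptor of macrophages, was at 13.27 in the neutrophil column, against 13.52 in Ly6C high cells of day 1. Of 9 macrophage and monocyte markers, 4 were at least 2-fold lower in the neutrophil column (Fcgr1, Cd14, Ccr2 and Ly6c2) and 5 lay within 2-fold. A value in that column cannot be assigned to neutrophils alone. In bulk samples such as these, fewer dividing cells and less RNA of these genes per cell cannot be told apart.

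The mitosis genes were lowest in Ly6C high macrophages of day 1 and highest in Ly6C low macrophages of day 4. Their median log2 value was 3.62 in Ly6C high cells on day 1, 5.11 on day 2 and 6.56 on day 4. In Ly6C low cells it was 6.84 on day 2 and 7.72 on day 4, and in the neutrophil column it was 6.60. Of the 38 members, 36 had their lowest value in Ly6C high cells of day 1, the exceptions being Mki67 (lowest on day 2 of the same cells) and Cenpa (lowest in Ly6C low cells of day 2). Among the 5 macrophage groups, all 38 had their highest value in Ly6C low cells of day 4. In Ly6C high cells, 37 of 38 were ordered day 1, day 2, day 4 from low to high, and Mki67 was not. For 32 members the macrophage groups followed a single order, from Ly6C high day 1 through Ly6C high day 2, Ly6C high day 4 and Ly6C low day 2 to Ly6C low day 4. Neighbours in that order were close in the middle, since Ly6C low cells of day 2 and Ly6C high cells of day 4 lay within 2-fold of each other for all 38 members. On day 1, 29 members were under a log2 value of 5 in Ly6C high cells, and on day 2 18 were, so that those values rest on few reads. Many members therefore entered the comparisons below through 1 group only, the one where they were high. Of members at 5 or above in both groups, 8 of 9 were lower in Ly6C high cells of day 1 than in the neutrophil column. In Ly6C high cells, 13 of 20 such members rose from day 2 to day 4 and 6 of 9 from day 1 to day 4. In Ly6C low against Ly6C high cells, 15 of 20 were higher on day 2 and 26 of 36 on day 4. For members at 5 or above in both groups, no share over all genes under the same filter was counted. The shares over all genes given below are of genes at 5 in either group. No member was at 0 in any group.

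**Figure D2:**
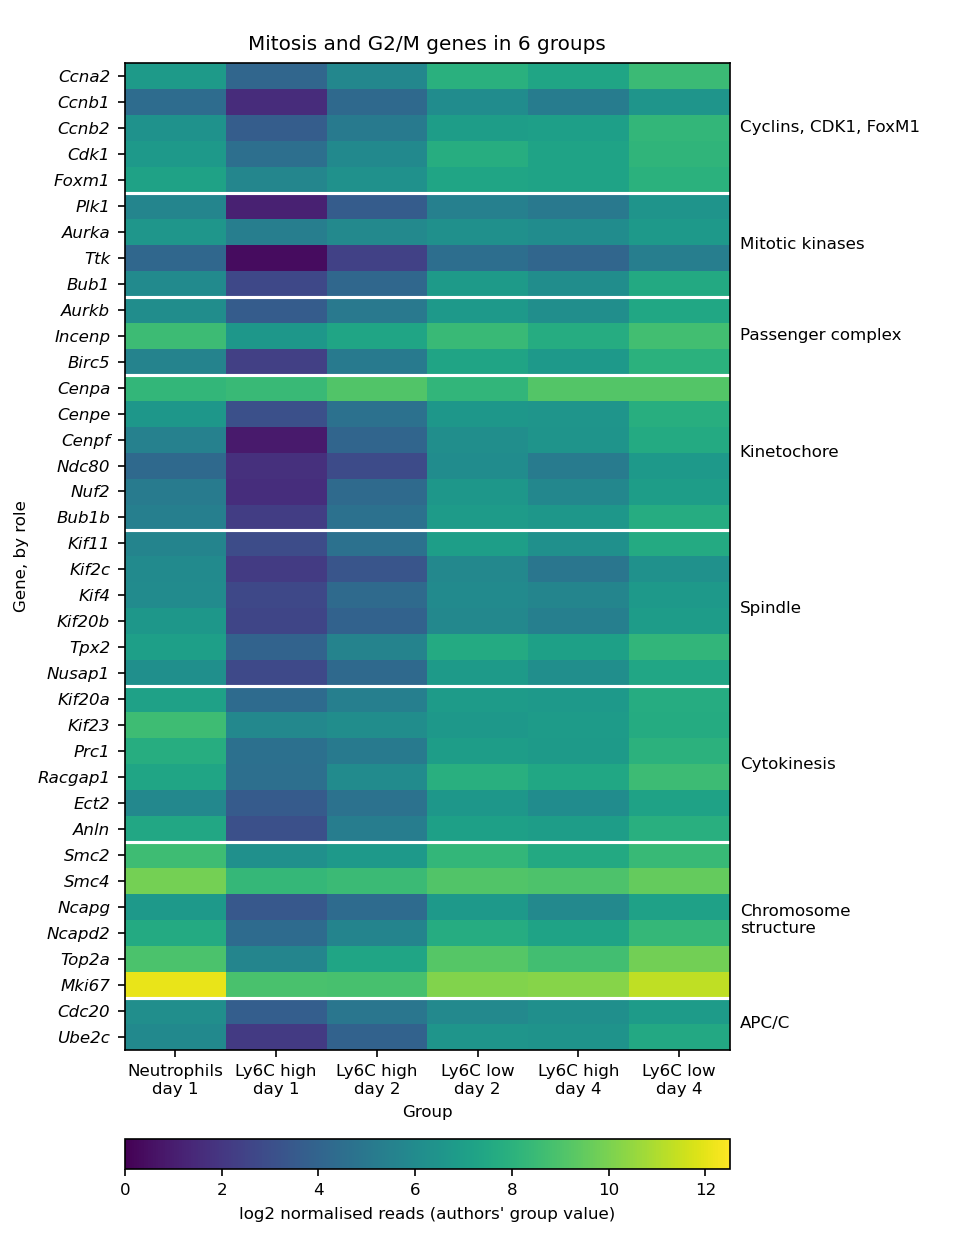
Log2 normalised reads (colour, authors' group value) of the 38 members (rows, by role) in the 6 groups (columns). The column of Ly6C high macrophages of day 1 is darkest for 36 members, and that of Ly6C low macrophages of day 4 is the brightest macrophage column for all 38.

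The first comparison set Ly6C high macrophages of day 1 against the neutrophil column of the same day. The mitosis genes were lower in the macrophages. Of 35 members compared, 34 were lower and none was higher, where 16.1% of all 11890 genes compared were lower and 16.6% higher. The median difference was -3.14, against 0.08 over all genes. Anln, which encodes the scaffold protein anillin of the cleavage furrow, was at 3.07 against 7.49. The proliferation marker Mki67, whose protein coats mitotic chromosomes, was at 8.93 against 12.09, which is 8.98-fold. The largest differences were those of Cenpf (-4.59), Plk1 (-4.53) and Anln (-4.42), and the smallest of those called were those of Aurka (-1.24), Foxm1 (-1.48) and Smc4 (-1.52). Cenpa was the 1 member compared that was not called, at 8.45 against 8.26. Ndc80, Ccnb1 and Ttk were under the threshold in both groups. The 10 markers of mature neutrophils summed to 86754 normalised reads in the neutrophil column and to 3969 in the macrophages. The 10 granule genes of neutrophil precursors found summed to 674 there and to 274 in the macrophages. That order of the sums comes from Ltf, which is also on the list of mature neutrophils, at 9.19 against 4.40. Of the 3 granule genes compared, Ltf was the 1 lower in the macrophages and the other 2 were higher there. Elane, Mpo, Ms4a3 and Fcnb were at 0 in the neutrophil column. Which cells of that column carried the mitosis genes was not tested. With protein-coding genes alone, 38.2% of all called genes were higher in the macrophages, against 50.8% with all genes.

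In Ly6C high macrophages the mitosis genes came up in steps between days 1, 2 and 4, and these comparisons share groups. From day 1 to day 2, 11 of the 20 members compared rose and none fell, where 1.41% of all genes compared rose and 1.1% fell. Of the 20, Birc5, which encodes survivin, had the largest rise, from 2.36 to 5.17, followed by Anln (3.07 and 5.30) and Ccna2 (4.10 and 5.78). Smc4 (8.35 and 8.50), Kif23 (5.84 and 6.10) and Mki67 (8.93 and 8.87) had the smallest differences. Of the 20, 9 reached 5 on both days, and of these Top2a alone rose. The other 11 reached 5 on day 2 only, which favours a rise, and 10 of them rose. Among members under 5 on both days, Cenpf went from 0.91 to 4.10. Over all 38 the median difference was 1.44, and it was above 0 for 37.

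From day 2 to day 4, 28 of 36 members rose and none fell, where 14.3% of genes rose and 2% fell. Ube2c, the ubiquitin-conjugating enzyme of the anaphase-promoting complex, went from 3.92 to 6.42, Cenpf from 4.10 to 6.45 and Ndc80 from 2.85 to 5.19. The smallest differences were those of Cenpa (9.09 and 9.13), Aurka (5.90 and 6.07) and Incenp (7.35 and 7.75). The median difference was 1.44. With quantile normalization of the columns 16 members rose, and the share of higher genes among all called genes was 62.0% instead of 87.7%.

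Over the whole span from day 1 to day 4, 33 of 36 members rose and none fell, where 17.6% of genes rose and 3.97% fell. The median difference was 2.95, or 7.71-fold. Cyclin B2 (Ccnb2) went from 3.66 to 7.04, a 10.4-fold rise, and Cdk1 from 4.59 to 7.26, a 6.36-fold rise. Aurka, Cenpa and Smc4 were the 3 members compared that did not pass 2-fold, with differences of 0.73, 0.68 and 0.68. With quantile normalization the share of higher genes among all called genes was 56.9% instead of 81.6%, and the members' median was 2.26.

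The macrophage subsets were set against each other on days 2 and 4. On day 2, 31 of 37 mitosis genes were higher in Ly6C low cells and none was lower, where 3.71% of genes were higher and 4.03% lower. The median difference was 1.84, or 3.58-fold. Ndc80, a kinetochore protein that binds microtubules, was at 6.10 against 2.85, Bub1 at 6.81 against 4.19 and Ube2c at 6.52 against 3.92. Foxm1 (7.34 against 6.34) and Cdc20 (5.88 against 4.90) lay just under 2-fold. Smc4, Kif23 and Aurka differed by 0.62, 0.56 and 0.35. Cenpa alone had the lower value in Ly6C low cells, 8.22 against 9.09.

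On day 4, 28 of 38 members were higher in Ly6C low cells and none was lower, where 2.44% of genes were higher and 8.93% lower. The median difference was 1.15, or 2.22-fold, and no member differed by 3-fold. Ndc80 was at 6.77 against 5.19, Kif20b at 6.90 against 5.39 and Bub1 at 7.59 against 6.15. Cdc20, Smc4 and Cenpa had the smallest differences, 0.63, 0.52 and 0.04. With quantile normalization the share of higher genes among all called genes was 38.2% instead of 21.4%.

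From day 2 to day 4 all 38 members had a higher value in Ly6C low cells, and 9 passed 2-fold while none fell, where 9.23% of genes rose and 2.16% fell. The 9 were Cenpf (6.19 and 7.65), Ccnb2 (6.98 and 8.26), Cenpe (6.63 and 7.83), Mki67 (10.12 and 11.29), Kif20b, Ube2c, Prc1, Plk1 and Kif23. The median difference was 0.68. Smc2 (8.27 and 8.42), Incenp (8.49 and 8.73) and Nuf2 (6.61 and 6.97) differed least. Only 4 members passed after median-ratio rescaling, where 957 of 11782 genes rose, and 5 after quantile normalization, where 855 of 11736 did. These counts of members lie not far above the shares over all genes. After quantile normalization the share of higher genes among all called genes was 66.7% instead of 81.1%.

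The gap between Ly6C low and Ly6C high cells was then compared between the days, as the difference on day 4 minus that on day 2. It was smaller on day 4 by at least 2-fold for 9 of 38 members and larger for none, where 6.09% of genes were lower by this measure and 0.967% higher. The median was -0.72, and 35 of 38 members were under 0. Ndc80 (-1.67), Ube2c (-1.45) and Nusap1 (-1.31) had the lowest values, and Cenpa (0.90), Aurka (0.28) and Kif23 (0.27) the highest. Ly6C high cells had gained more by day 4 than Ly6C low cells, by medians over 38 members of 1.45 and 0.68. With quantile normalization 0 of the 38 passed 2-fold, where 577 of 12369 genes were lower. The share of higher genes among all called genes was then 30.4% instead of 13.7%. With a pseudocount of 5 on the linear scale 3 passed, where 841 of 12950 genes were lower.

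By role, the cyclins, CDK1 and the transcription factor FOXM1 form the switch into mitosis. Cyclin A2 (Ccna2) was at 6.79 in the neutrophil column, at 4.10, 5.78 and 7.34 in the Ly6C high groups of days 1, 2 and 4, with 7.95 and 8.52 for Ly6C low cells of days 2 and 4. Cyclin B1 (Ccnb1) was at 4.44, at 1.61, 4.28 and 5.23, and at 6.08 and 6.50 in the same order of groups. Both were lowest in Ly6C high cells of day 1 and highest in Ly6C low cells of day 4, and both were higher in Ly6C low cells on each day. Cdk1 was at 6.78 in the neutrophil column, at 4.59, 5.94 and 7.26 in Ly6C high cells, and at 7.77 and 8.19 in Ly6C low cells. Foxm1 moved over a narrower span, at 7.21, at 5.73, 6.34 and 7.24, and at 7.34 and 8.01. The 5 genes of this role had a median difference of 1.82 between Ly6C low and Ly6C high cells on day 2 and of 1.19 on day 4.

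Of the mitotic kinases, Plk1, which triggers centrosome maturation, was at 5.66 in the neutrophil column, at 1.13, 3.63 and 5.04 in Ly6C high cells and at 5.44 and 6.46 in Ly6C low cells. Ttk, the kinase that starts the spindle checkpoint, was at 4.15, at 0.42, 2.42 and 4.15, and at 4.50 and 5.35. Their day 1 values in Ly6C high cells lie near the floor of the scale, so the sizes of their differences from that group are uncertain. Bub1, another checkpoint kinase, was at 5.96, at 2.72, 4.19 and 6.15, and at 6.81 and 7.59. Aurka, the kinase of the spindle poles, stayed within a narrow span, at 6.59, at 5.35, 5.90 and 6.07, and at 6.25 and 6.71. It passed 2-fold in none of the comparisons made between macrophage groups. Ly6C high cells of day 1 and Ly6C low cells of day 4, which were not compared, lay 1.36 apart.

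The chromosomal passenger complex corrects faulty attachments of chromosomes and guides cytokinesis. Its kinase gene Aurkb was at 6.15 in the neutrophil column, at 3.65, 5.06 and 6.17 in Ly6C high cells and at 6.75 and 7.43 in Ly6C low cells. Birc5, its survivin subunit, was at 5.58, at 2.36, 5.17 and 6.72, and at 7.31 and 7.99. Incenp, the scaffold, was at 8.58, at 6.62, 7.35 and 7.75, and at 8.49 and 8.73. All 3 were higher in Ly6C low cells on day 2, and on day 4 Aurkb and Birc5 were while Incenp differed by 0.98.

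The kinetochore group joins chromosomes to microtubules and holds anaphase back until they are attached. Cenpf, a large protein of the outer kinetochore, was at 5.51 in the neutrophil column, at 0.91, 4.10 and 6.45 in Ly6C high cells and at 6.19 and 7.65 in Ly6C low cells. Cenpe, a kinesin that moves chromosomes, was at 6.63, at 3.05, 4.67 and 6.51, and at 6.63 and 7.83. Bub1b, the checkpoint protein BUBR1, was at 5.40, at 2.26, 4.67 and 6.61, and at 6.88 and 7.76. The microtubule-binding partners Ndc80 and Nuf2 were also lowest in Ly6C high cells of day 1, at 1.73 and 1.62, and highest in Ly6C low cells of day 4, at 6.77 and 6.97. This role had the largest median difference from Ly6C high day 1 to Ly6C high day 4 among the 8 roles, at 3.80. All its members but Cenpa were under 5 on day 1 and entered that comparison through day 4 only. Cenpf, Nuf2 and Ndc80 lay near the floor of the scale on day 1. The size of that median and its rank among the roles are therefore uncertain. Cenpa, the centromeric histone, stood apart. It was at 8.26 in the neutrophil column, at 8.45, 9.09 and 9.13 in Ly6C high cells and at 8.22 and 9.17 in Ly6C low cells, and it passed 2-fold in no comparison.

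Among spindle genes, Kif11, the motor that pushes spindle poles apart, was at 5.65 in the neutrophil column, at 2.91, 4.66 and 6.27 in Ly6C high cells and at 6.99 and 7.63 in Ly6C low cells. Tpx2, which activates Aurora A on the spindle, was at 7.05, at 3.96, 5.58 and 7.08, and at 8.22 in Ly6C low cells of day 4, after 7.63 on day 2. Kif20b was at 6.62, at 2.60, 3.93 and 5.39, and at 5.84 and 6.90. All 6 members of this role were higher in Ly6C low than in Ly6C high cells on day 2 and again on day 4, with medians of 2.19 and 1.29. Of the other 3, Kif2c, Kif4 and Nusap1, values ran from 2.19, 2.70 and 2.76 in Ly6C high cells of day 1 to 6.33, 6.72 and 7.41 in Ly6C low cells of day 4.

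The cytokinesis genes build the central spindle and the cleavage furrow. Racgap1, part of centralspindlin, was at 7.36 in the neutrophil column, at 4.54, 6.01 and 7.44 in Ly6C high cells and at 7.88 and 8.59 in Ly6C low cells. Kif23, its motor partner, was at 8.63, at 5.84, 6.10 and 6.86, and at 6.66 and 7.68. The partners thus differed in where they were highest, Racgap1 in Ly6C low cells of day 4 and Kif23 in the neutrophil column. Prc1, which bundles microtubules between the separating chromosomes, was at 7.80, at 4.59, 5.15 and 6.80, and at 6.96 and 8.01. Ect2, the exchange factor that switches on RhoA at the furrow, was at 5.85, at 3.58, 4.70 and 6.09, and at 6.60 and 7.19. All 6 rose from day 1 to day 4 in Ly6C high cells. For Kif20a, a kinesin of this role, 29.3% of the exon bases lie on exons of Cdc23 on the other strand. The labels' protocols name no step that keeps strand, so reads on those bases cannot be told apart from those of Cdc23.

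Levels of different genes can be set side by side only per length. In Ly6C low cells of day 4, Mki67 had 249 normalised reads per kilobase of exon, Ccnb2 199.6 and Smc4 143, while Ttk had 8.31. The chromosome proteins include the most abundant of these. Top2a was at a log2 value of 8.98 in the neutrophil column, at 5.69, 7.35 and 8.72 in Ly6C high cells and at 9.19 and 9.86 in Ly6C low cells. Mki67 was at 12.09, at 8.93, 8.87 and 10.23, and at 10.12 and 11.29. The levels of the condensin ATPase genes Smc2 and Smc4 varied less, from 6.26 to 8.60 and from 8.35 to 9.87 over the 6 groups. The non-ATPase subunits Ncapg and Ncapd2 spanned more, from 3.42 to 7.14 and from 4.35 to 8.30. Smc2, Smc4, Mki67 and Kif23 were the 4 members with their highest value in the neutrophil column.

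The 2 members that act with the anaphase-promoting complex passed 2-fold in several comparisons, and its core subunits passed in none. Cdc20 was at 6.20 in the neutrophil column, at 3.74, 4.90 and 6.23 in Ly6C high cells and at 5.88 and 6.86 in Ly6C low cells. Ube2c was at 5.92, at 2.11, 3.92 and 6.42, and at 6.52 and 7.56. Of 15 core subunits compared, 0 passed 2-fold in any of the 8 comparisons, with medians between -0.13 and 0.11. Over all genes, 1.41% were higher and 1.1% lower from day 1 to day 2 in Ly6C high cells. In Ly6C low against Ly6C high cells 3.71% were higher and 4.03% lower on day 2, and 2.44% and 8.93% on day 4. For the gap between the subsets the shares were 0.967% and 6.09%, and in Ly6C low cells over time 9.23% and 2.16%. With so few subunits, 0 of 15 is not far from any of these shares. Against the neutrophil column, 16.6% of all genes were higher and 16.1% lower in Ly6C high cells of day 1. In Ly6C high cells 14.3% rose and 2% fell from day 2 to day 4, and 17.6% and 3.97% from day 1 to day 4. For Ube2c, 22.8% of the exon bases are shared with Tnnc2, a gene of muscle fibres on the other strand.

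**Figure D3:**
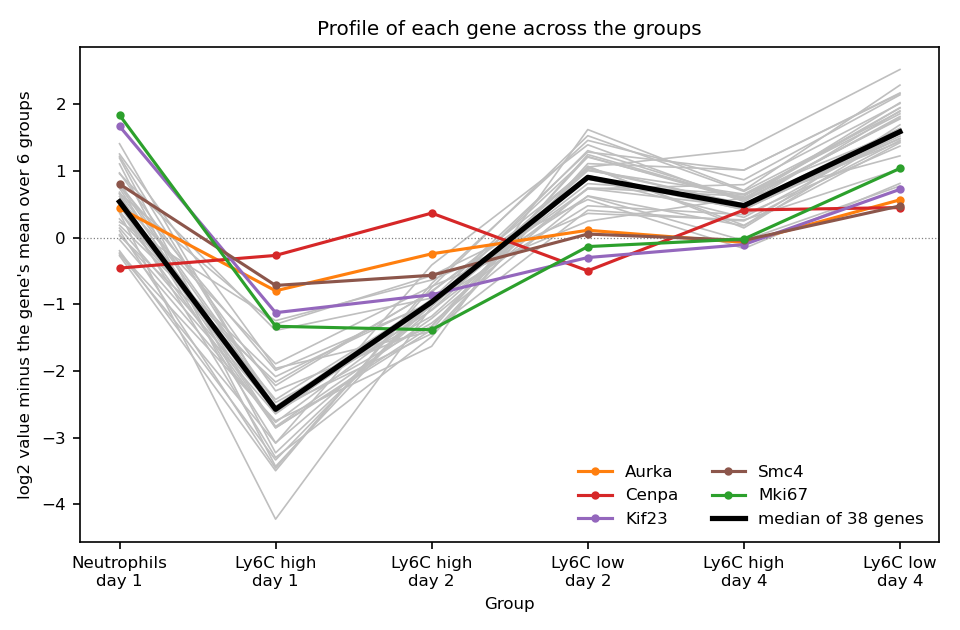
Log2 value minus the gene's own mean over the 6 groups (vertical axis) in each group (horizontal axis), 1 line per member, with the median of the 38 in black and the 5 members farthest from it in colour. The median runs from -2.57 in Ly6C high cells of day 1 to 1.59 in Ly6C low cells of day 4, and Cenpa, Kif23, Smc4, Aurka and Mki67 have flatter or differently ordered profiles.

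The likeness of profiles was measured as the distance between log2 values, each gene centred on its own mean over the 6 groups. Top2a (0.16), Tpx2 (0.18) and Racgap1 (0.21) lay closest to the median profile of the members. Cenpa (3.37), Kif23 (2.43), Smc4 (2.43), Aurka (2.38) and Mki67 (2.24) lay farthest from it. Among 12944 genes outside the list, the nearest to the median profile was Polq, a DNA polymerase of double-strand break repair, at 0.22. Next were Kif22 (0.46), Melk (0.46), Cadm1 (0.49), Cdca5 (0.50) and Casc5 (0.50). Of the 10 nearest genes, 4 were on the list of other mitosis genes and Pkmyt1, a kinase that inhibits CDK1, was on the list of brakes. Cadm1, a cell adhesion molecule, was at 10.19 in the neutrophil column, at 7.24, 9.15 and 10.04 in Ly6C high cells and at 10.54 and 11.12 in Ly6C low cells.

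DNA replication genes, which act earlier in the cycle, moved with the mitosis genes but had smaller median differences in all 7 comparisons of pairs of groups, with the other sign in 1. From Ly6C high cells of day 1 to day 4 the median was 1.10 over 32 replication genes and 2.95 over the 38 mitosis genes. Between Ly6C low and Ly6C high cells on day 2 the medians were close, 1.48 and 1.86. From day 2 to day 4 in Ly6C low cells the 38 mitosis genes were all above 0, with a median of 0.68, whereas 5 of 32 replication genes were, with a median of -0.39. After quantile normalization or median-ratio rescaling all 38 mitosis genes were still above 0, and 4 of 32 replication genes were. No replication gene passed 2-fold in that comparison. Mcm4, Mcm2 and Pold1 had the lowest differences, -0.82, -0.77 and -0.74, and Mcm4, a subunit of the replicative helicase, was at 9.21 and then 8.39. Over the same days the summed level of the 32 replication genes went from 9799 to 7370 normalised reads, and that of the mitosis genes from 6921 to 11755.

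**Figure D4:**
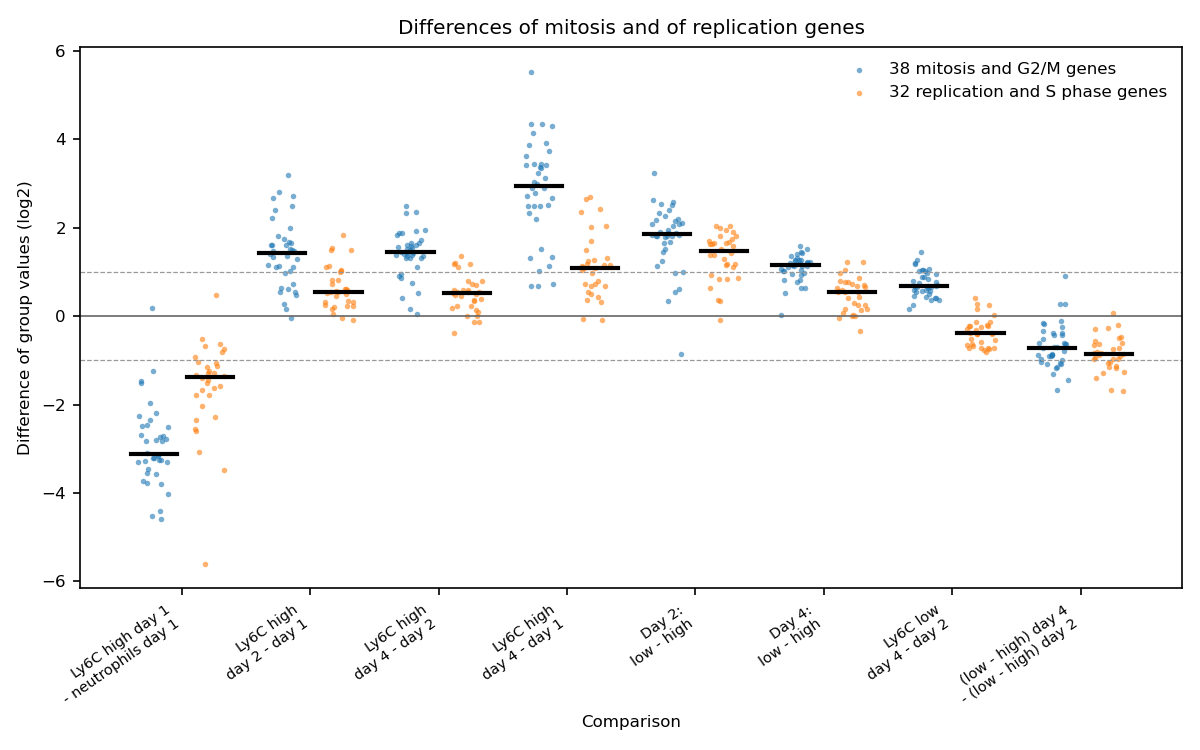
Differences between group values (vertical axis, log2) for the 38 mitosis genes (blue) and 32 replication genes (orange) in each comparison (horizontal axis), 1 point per gene, with the median as a bar and 2-fold as dashed lines. The bars have the same sign in all comparisons but that of Ly6C low cells between day 2 and day 4, where they lie at 0.68 and -0.39.

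The other lists of the pathway were counted in the same way, between Ly6C low and Ly6C high cells. Over all genes, as above, 3.71% were higher and 4.03% lower on day 2, and 2.44% and 8.93% on day 4. Of the other mitosis genes, 33 of 52 compared were higher in Ly6C low cells on day 2 and 1 was lower, and 33 of 63 were higher on day 4. Hmmr, which encodes a spindle-associated protein, was at 6.43 against 4.24 on day 2 and at 7.33 against 5.73 on day 4. Of the genes of the DREAM and MuvB complexes and their partners, 2 of 9 were higher in Ly6C low cells on day 2, Mybl2 (5.41 against 3.72) and Rbl1, and 0 on day 4. Rb1, the retinoblastoma gene, stayed between 10.09 and 10.24 in all 6 groups. Among the genes of G1 cyclins, their kinases and E2F factors, 2 of 17 were higher in Ly6C low cells on day 2. These were Ccne1 (6.35 against 4.36) and Ccnd1 (9.72 against 8.29). On day 4 1 of 17 was higher, E2f8, and 1 lower, Ccnd2. E2f2 was at 8.11 in the neutrophil column and between 5.31 and 6.38 in the macrophage groups.

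The list of brakes on the cycle was split. On day 2, 2 of 13 compared were higher in Ly6C low cells and 1 was lower, with a median of -0.21. Of 15 compared on day 4, where 2.44% of all genes were higher and 8.93% lower, 4 were higher in Ly6C low cells and 0 lower, and the 3 largest differences were those of Cdkn3 (1.56), Wee1 (1.38) and Pkmyt1 (1.07). All 3 restrain cyclin-dependent kinases. Cdkn1a, the inhibitor p21, had its highest value in Ly6C high cells of day 1, 12.76, and was at 12.62 and 12.19 on days 2 and 4, at 11.83 and 11.90 in Ly6C low cells and at 11.65 in the neutrophil column. Cdkn1b, the inhibitor p27, was lower in Ly6C low cells on day 2, at 8.43 against 9.44, and at 9.09 against 9.31 on day 4. Csf1, the growth factor of macrophages, was at 14.49 in the neutrophil column and between 9.87 and 10.94 in the macrophages.

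Markers of other cells moved with the columns, and those cells may also divide. The 8 fibroblast markers summed to 58625 normalised reads in Ly6C high cells of day 4 and to 14800 in Ly6C low cells of day 4, against 56 to 1311 in the other 4 groups. The 8 endothelial markers summed to 5447 in Ly6C high cells of day 4 and to between 258 and 1064 elsewhere. The 7 markers of muscle progenitors found summed to 192 and 376 on day 4 in Ly6C high and Ly6C low cells, and to 7.85 to 21.8 in the earlier groups. Myog, a defining gene of differentiating muscle cells, was at 3.39 and 5.98 on day 4 and at 0 before. On day 2, fibroblast markers summed to 232 in Ly6C low cells and 1311 in Ly6C high cells, the reverse of the order of the mitosis genes, whose sums were 6921 and 2851. On day 4 fibroblast and endothelial markers were likewise lower in the Ly6C low column, where the mitosis genes were higher, and muscle progenitor markers were higher there. From day 2 to day 4 fibroblast markers went the same way as the mitosis genes. All 8 rose at least 2-fold in both subsets, with medians of 5.37 in Ly6C high and 5.56 in Ly6C low cells. Over all genes 14.3% and 9.23% rose. All 8 endothelial markers rose in Ly6C high cells, with a median of 2.76, and 0 of 4 compared in Ly6C low cells. B cell markers summed to 1265 and 1063 on day 4 in Ly6C high and Ly6C low cells and to between 111 and 279 before. T and NK cell markers summed to 502 and 496 on day 4 and to between 29.8 and 76.9 before. Those sums rest on few genes. Between the subsets on day 4, 2 of 6 B cell markers were compared and lay within 2-fold. Of 8 T and NK markers 2 were compared, of which 1 was lower in Ly6C low cells and 1 was above 0, with a median of -2.77. From day 2 to day 4 in Ly6C low cells only 1 T and NK marker reached 5 in either group. Dendritic cell markers summed to 1931 in Ly6C high cells of day 4 and to between 179 and 728 elsewhere. On day 2 the markers of mature neutrophils went the same way as the mitosis genes. All 6 compared were above 0 in Ly6C low against Ly6C high cells, with a median of 0.85, and 2 passed 2-fold. The part of any of these cells in the values of the mitosis genes was not tested.

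**Figure D5:**
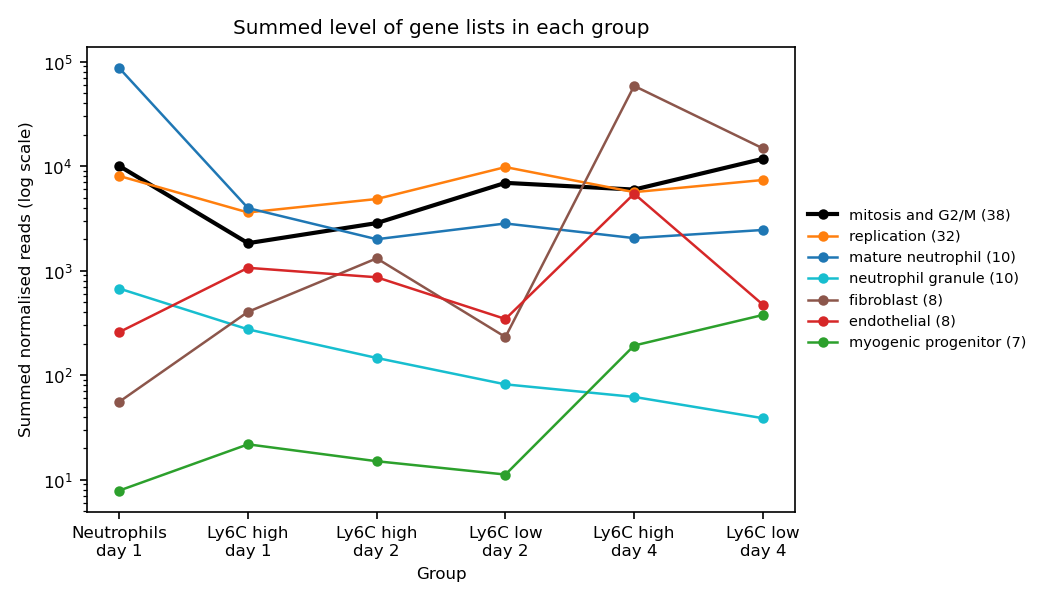
Summed normalised reads (vertical axis, log scale) of the mitosis genes, the replication genes and marker lists of other cells in the 6 groups (horizontal axis), with the number of genes in brackets. The mitosis genes run from 1831 in Ly6C high cells of day 1 to 11755 in Ly6C low cells of day 4, while fibroblast markers are highest in Ly6C high cells of day 4.

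Reads of 9 members could be shared with another gene, because some of their exon bases lie on exons of another protein-coding gene and no step that keeps strand is stated. These were Ccna2, Foxm1, Kif4, Nusap1, Kif20a, Prc1, Ncapg, Cdc20 and Ube2c, with 1.7 to 29.3% of their exon bases shared with any 1 such gene. The direction of the members' median was the same without them in all 8 comparisons.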

How the data were processed

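RNA was measured in 17 samples of 6 groups, from poly-A selected TruSeq libraries per the labels' protocols. TopHat2 2.0.7, Cufflinks 2.0.2 and the mm10 build appear in the submitters' processing notes, with no role for each. For the counter, annotation and normalization the sources used here give nothing. The authors deposited log2 normalised reads, 1 column per group. They were read as means over samples, with values under 1 set to 1 before the logarithm. That reading rests on ladders of whole reads (tolerance 1e-05), which held 27.9 to 58.9% of the low values of a column. The search took at most 1 ladder per sample, so the 17 found are the most it could return. The remaining low values lay on no ladder. Unmapped columns numbered 0.

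Each gene's group values were subtracted from each other (Python 3.11.15, numpy 2.4.6, pandas 2.3.3). The scripts were tested on simulated data. A test on single samples (limma) had been planned and could not be run. Coordinates and exon lengths come from GENCODE M21 on GRCm38, which held 95.3% of the gene identifiers and all 38 members. All members could be named, with the 3 highest and 3 lowest differences of each comparison, up to 3 genes of each further list with the largest differences, marker genes, and the 10 genes of nearest profile. Genes named otherwise were chosen after their values were seen. The members and lists were chosen with earlier results of these data known.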

Additional observations from a re-analysis of the deposited data

How the results depend on the processing

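Across the 8 settings that can move a median (pseudocounts, filters, scalings and leaving out members with shared exons), no median of the members changed sign, and 62 of 64 moved by no more than 1.5-fold. The exceptions were a median of -2.54 with a pseudocount of 5 (day 1, Ly6C high against neutrophils) and of 2.26 with quantile normalization (Ly6C high, day 1 to 4). Quantile normalization moved the median of all genes from 0.01 to -0.13 between Ly6C high cells of days 2 and 4 and to -0.14 between days 1 and 4. There it left 16 members higher from day 2 to 4, and it left 5 in Ly6C low cells from day 2 to 4 and 0 lower for the gap between the subsets, where a pseudocount of 5 left 3. Median-ratio rescaling left 4 in Ly6C low cells. The counts over all genes beside these are given with the comparisons above. From day 1 to 2 in Ly6C high cells, 28 members passed without a filter and 27 with a value of at least 5 in 2 of 6 groups. There 633 of 19461 and 304 of 11974 genes rose. With a filter of 7, 1 member passed, where 64 of 8316 genes rose, and at 3-fold 5 did, where 44 of 11232 rose. The filter of 7 left 13 lower against neutrophils, where 1159 of 8786 genes were lower. In Ly6C high cells it left 8 higher from day 2 to 4 and 11 from day 1 to 4, where 820 of 9034 and 1065 of 9073 genes were. In Ly6C low against Ly6C high cells on day 2 it left 11 higher, where 186 of 8568 genes were. The number of members that entered at a filter of 7 was not recorded. At 1.5-fold, 26 members were higher in Ly6C low cells from day 2 to 4, where 2109 of 11824 genes were. On day 2, 1 (Cenpa) was lower in Ly6C low cells, where 1058 of 11482 genes were. For the gap 1 was higher and 25 lower, where 562 and 1453 of 12621 genes were. At 3-fold, 12 members were higher in Ly6C high cells from day 2 to 4, where 1183 of 12348 genes were. Between the subsets on day 4 the count was 0, where 50 of 12438 genes were higher and 804 lower. In Ly6C low cells over time it was 0, where 531 of 11824 genes were higher and 77 lower. For the gap 1 was lower, where 337 of 12621 genes were. Over all genes, the number 2-fold apart ran from 282 to 3886 over the comparisons, from 1024 to 8154 without a filter and from 136 to 2556 with a filter of 7. It ran from 891 to 6220 at 1.5-fold and from 87 to 2367 at 3-fold, and with at least 5 in 2 of 6 groups it was 940 for the subsets on day 4 and 527 for the gap. Leaving out members with shared exons was added after the data were seen and changed no direction. No paired analysis was possible because the table holds group values only, and for that reason leaving out single samples was not run. In 1 neutrophil library 84.4% of 2490 genes sat at even numbers of reads, so its reads may have been counted in pairs and its counting error may be larger.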
